A study of Mus musculus with 8 samples.

Results

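Voltage-gated sodium and calcium channels open when the membrane of a neuron depolarizes. Each is built around a large pore-forming subunit, which carries the voltage sensors and the path for the ions, and smaller auxiliary subunits, which act on its traffic to the membrane and on its gating. In hippocampal neurons, sodium channels gathered at the axon initial segment start the action potential, P/Q-type and N-type calcium channels trigger transmitter release at terminals, L-type channels couple activity to transcription, and T-type channels act near the resting potential. Members were taken by symbol, as all genes of the deposited table whose name begins with Scn and a number, Cacna1, Cacna2d or Cacnb1 to Cacnb4. This gave 32 of the 23845 genes in the table, 20 coding for pore subunits and 12 for auxiliary subunits.

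Neurons were taken from the hippocampus of mouse embryos at embryonic day 19, of a strain not given in the sources used here, and grown in primary culture. All cultures were infected with lentivirus at 13 to 15 days in vitro and had been cultured for 17 to 19 days at harvest. The virus carried a short hairpin RNA that was either scrambled (the control) or directed against CNOT7, a deadenylase subunit of CCR4-NOT, the complex by which mRNA poly(A) tails are shortened. From each kind of culture, RNA held on poly(U) agarose was taken off at 75 °C, either directly (total poly(A) RNA) or after a wash at 50 °C meant to remove tails under 50 nucleotides (long tails). The 8 libraries thus form 4 groups of 2, scrambled and knockdown, each as total RNA and as long tails. No source used here says whether libraries of the same group were separate cultures, so every p-value below measures the spread between these libraries, which may be technical.

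Values are TPM, transcript abundances scaled for transcript length and library total, which is meant to let levels of different genes be set side by side. Long-tail values relative to total ones still moved with transcript length (taken up below), and means over the 8 libraries include them. A TPM value is a share of its library. Differences are given as log2(TPM + 1), which understates changes of genes with low values. The read depth is unknown. Library sums ran from 999689 to 999809 TPM, and the ribosomal RNA precursor Rn45s took 2.90% to 18.6% of them. Knockdown long-tail library 2 stood apart: it lay at 56.6 on the first principal component, which held 50.1% of the variance, where the other 7 lay between −30.2 and 15.8, and it correlated with library 1 of its group at r = 0.966, against 0.982 to 0.985 within the other groups. The targeted gene, Cnot7, was at 42 and 36 TPM in scrambled total, 12 and 16 in knockdown total, 28 and 31 in scrambled long tails and 9 and 11 in knockdown long tails, so its libraries did not overlap between scrambled and knockdown.

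Markers of other cells than neurons were present. The summed TPM of 5 neuron markers ran from 2017 to 3130 over the 8 libraries, that of 6 astrocyte markers from 3014 to 5357, and that of 9 markers of the oligodendrocyte lineage from 990 to 1919. The vesicular glutamate transporter Slc17a7, which marks excitatory neurons, ran from 778 to 1362 TPM. Microglia markers summed to 0 to 5 TPM, with Aif1 and Cx3cr1 listed at 0, and muscle markers to 6 to 9 TPM, with Myh6, Ryr1 and Ttn listed at 0.

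Of the 32 members, 26 had a mean of at least 1 TPM over the 8 libraries and were tested: 14 of 20 pore subunits and 12 of 12 auxiliary subunits. The other 6 were listed at 0 in every library. They are the sodium pores Scn4a, the isoform of skeletal muscle, and Scn9a, Scn10a and Scn11a, isoforms of peripheral sensory neurons, and the calcium pores Cacna1s and Cacna1f, the L-type isoforms of skeletal muscle and retina. Closest to the threshold were Scn4b at a mean of 1.00 TPM, Cacna2d4 at 1.13 and Scn7a at 1.63.

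Cacnb3, a β subunit that brings calcium pores to the membrane, was at 136 and 114 TPM in scrambled total and 117 and 101 in scrambled long tails. In knockdown it was at 156 and 101 TPM in total RNA and at 115 and 123 in long tails, so the groups overlapped. It lay above Cacnb1, another calcium channel β subunit (61 to 85 TPM), in every library. From Cacnb1 downward, the ranges of neighbours in the order of means overlapped.

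Among sodium pores, Scn2a1, the main isoform of excitatory neurons early in development (its current symbol is Scn2a), had the highest mean. It was at 74 and 84 TPM in scrambled total, 48 and 52 in scrambled long tails, 66 and 85 in knockdown total, and 51 and 19 in knockdown long tails. Scn8a, the isoform that predominates at mature initial segments and nodes, was at 58 and 53, then 38 and 34, then 44 and 45, then 33 and 17 TPM in the same order of groups. The 19 and 17 TPM of knockdown long-tail library 2 were the lowest values of these genes. Scn1a, the isoform prominent in inhibitory neurons, and Scn3a, the embryonic isoform, had means of 10 and 9.5 TPM. Scn2a1 made up 42.2% to 52.1% of all sodium pore TPM in a library and Scn8a 27.6% to 37.8%.

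Calcium pores were led by Cacna1a, the P/Q-type pore, with 28 to 78 TPM over the libraries and 29.8% to 41.1% of calcium pore TPM. Cacna1e (R-type), Cacna1b (N-type) and Cacna1c (L-type) followed with means of 21.9, 20.4 and 20.3 TPM, and their ranges overlapped. Of the T-type pores, Cacna1h had a mean of 16.4 TPM, Cacna1g 6.5 and Cacna1i 5. Cacna1d, the other neuronal L-type pore, had a mean of 9.38 TPM.

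Scn2b and Scn3b, sodium β subunits of the immunoglobulin family, had means of 61.1 and 55.5 TPM. Among the α2δ subunits, extracellular proteins that raise the number of calcium channels at the membrane, Cacna2d3 had a mean of 32.3 TPM, Cacna2d1 23.5 and Cacna2d2 7.13. The β subunits Cacnb2 and Cacnb4 had means of 29 and 20.4 TPM.

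**Figure D1:**
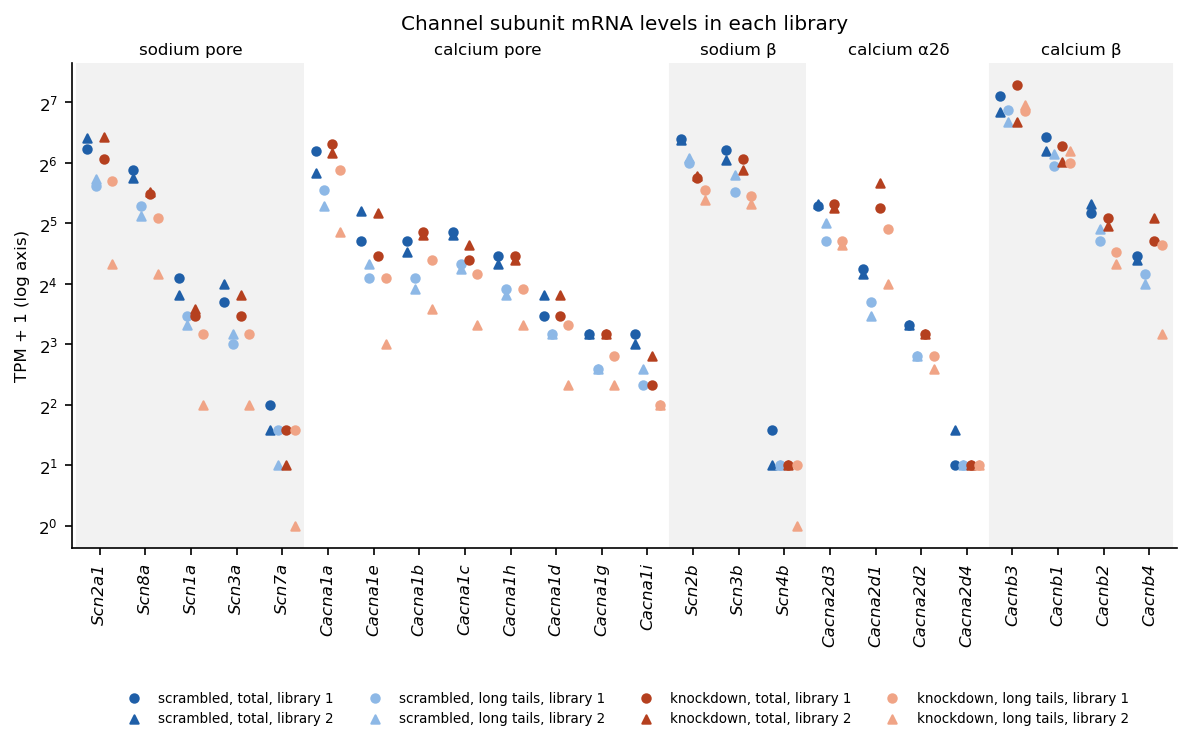
TPM + 1 (log axis) of 24 of the 26 tested members in each of the 8 libraries, by subunit class; circles are library 1 and triangles library 2 of a group, with no error bars because every library is drawn. Cacnb3 lies on top at 101 to 156 TPM, Cacna2d1 is the member whose 4 knockdown points lie highest against its scrambled points, and most pore subunits have their lowest point in knockdown long-tail library 2.

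The first comparison asks which channel mRNAs differed in total poly(A) RNA after the knockdown. Cacna2d1 was the member that stood out upward and Scn2b the one downward, by their difference against its error. Cacna2d1 is an α2δ subunit bound by the drugs gabapentin and pregabalin. It was at 18 and 17 TPM in scrambled total (17.5 ± 0.707, SD, n = 2) and at 37 and 50 TPM in knockdown total (43.5 ± 9.19). Both knockdown libraries were above both scrambled ones. The difference was 1.25 on the log2 scale (SE 0.323). For total RNA the authors' deposited table lists Cacna2d1 as a gene that rose, by 1.08 on the log2 scale (SE 0.234, adjusted p = 0.00125). It was the only member in either of the authors' deposited tables, which for total RNA hold 72 genes that rose (0.526% of tested genes) and 32 that fell (0.234%). The limma model on TPM did not call it (adjusted p = 0.539, between 0.134 and 1 under the alternatives), nor any other member or gene (0 of 13681, a background of 0%; unadjusted, 3 members were under 0.05).

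Scn2b was at 83 and 82 TPM in scrambled total (82.5 ± 0.707) and at 53 and 54 TPM in knockdown total (53.5 ± 0.707). Its libraries did not overlap, and the difference was −0.62 (SE 0.101, limma adjusted p = 0.290, range 0.109 to 0.734 over the alternatives). The T-type pore Cacna1i was at 8 and 7 TPM in scrambled and 4 and 6 TPM in knockdown total, a difference of −0.52 (SE 0.195, limma adjusted p = 0.760). Other genes that the naming rule takes had smaller differences against their errors. For Scn1a, at 16 and 13 against 10 and 11 TPM, the difference was −0.43 (SE 0.377, limma adjusted p = 0.972). The values of Cacnb2 were 35 and 39 against 33 and 30 TPM, a difference of −0.23 (SE 0.140, limma adjusted p = 0.924). Cacna1i, Scn1a and Cacnb2 each had both knockdown libraries below both scrambled ones.

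Unadjusted p-values under 0.05 in the limma model were met by 1 auxiliary subunit upward (Cacna2d1; 2.05% of all genes tested) and by 1 pore and 1 auxiliary subunit downward (Cacna1i and Scn2b; 4.3% of all genes). By libraries, 1 of 14 pore subunits (Cacna1b) and 2 of 12 auxiliary subunits (Cacna2d1 and Cacnb4) had both knockdown libraries above both scrambled ones, against 8.68% of all genes. Downward the counts were 5 of 14 (among them Scn1a, Scn8a, Cacna1c and Cacna1i) and 3 of 12 (Scn2b, Cacna2d2 and Cacnb2), against 20.1%. Cacnb4 was at 21 and 20 TPM in scrambled total and at 25 and 33 in knockdown total, and Cacna1b at 25 and 22 against 28 and 27.

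The order of the medians of pore and auxiliary subunits in total RNA depended on single libraries. The median difference was −0.18 over 14 pore subunits, 3 above and 9 below 0 (6 above and 8 below with median-ratio scaling), and −0.15 over 12 auxiliary subunits, 3 above and 9 below. Over all genes it was −0.07, with 60.2% below 0. Without knockdown total library 1 the pore and auxiliary medians were −0.02 and −0.28, and without library 2 of that group −0.29 and −0.04. The 6 sodium pores were all below 0, with a median of −0.36, except under median-ratio scaling, where 5 of 6 were (median −0.27). The 4 sodium β subunits were below 0 with either scaling (median −0.22). The 8 calcium pores had 3 above and 3 below 0 and a median of 0 (5 above and 3 below with quantile normalization or median-ratio scaling). Without scrambled total library 2, or without knockdown total library 1, 1 sodium pore was above 0, and without scrambled total library 1 the median of the sodium β subunits was −0.04. In bulk RNA, fewer cells of a type and less RNA per cell cannot be told apart.

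Markers of the oligodendrocyte lineage were lower in the knockdown libraries. The summed TPM of the 9 oligodendrocyte markers was 1739 to 1843 in scrambled total and 1160 to 1181 in knockdown total, with 9 of 9 below 0 and none listed at 0. In long tails the sums were 1483 to 1919 and 990 to 1278, again with 9 of 9 below 0. Astrocyte markers summed to 4175 to 5357 and 3270 to 5295 TPM in total RNA, with 6 of 6 below 0 and 0 of 6 at an unadjusted p under 0.05 in limma. In long tails they summed to 3679 to 4195 and 3014 to 4026 TPM, with 2 above and 4 below 0, so the sums overlapped in both fractions. Gfap was the largest part of these sums, at 2934 and 1767 TPM in scrambled total and 3078 and 1488 in knockdown total. In long tails 2 of 6 astrocyte markers were under 0.05 downward by unadjusted limma p (6.47% of all genes). Their libraries were apart downward for 3 of 6 in total RNA and 2 of 6 in long tails, against 20.1% and 17.1% of all genes. The 5 neuron markers summed to 2490 to 2657 and 2628 to 3130 TPM, with 3 above and 2 below 0. The part of these cells in the values of Scn2b and the sodium pores was not tested.

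**Figure D2:**
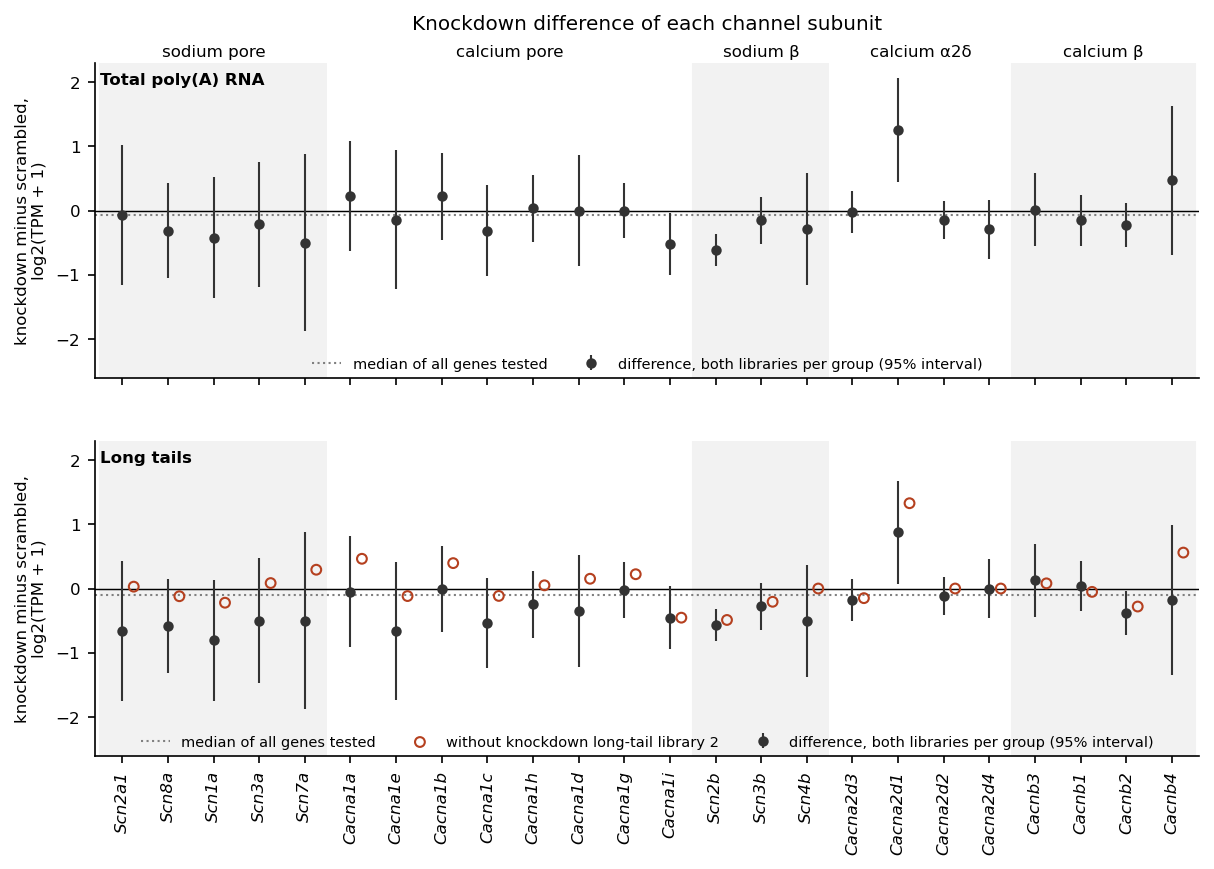
Knockdown minus scrambled difference of 24 of the 26 tested members on the log2(TPM + 1) scale in total RNA (top) and long tails (bottom); dots are limma estimates over 2 libraries per group with 95% intervals, open circles leave out knockdown long-tail library 2, and the dotted line is the median of all genes. Cacna2d1 lies highest in both panels (1.25 and 0.87), and without library 2 the pore subunits in long tails lie around 0.

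For the 3 members with an unadjusted p under 0.05 in total RNA, the sequence just upstream of a RefSeq start is shown, since the knockdown results turn on them. Cacna2d1 lies on chromosome 5, 15934264 to 16374511, plus strand, and has 39 exons in its longest coding transcript. Scn2b lies on chromosome 9, 45117876 to 45130070, plus strand, and Cacna1i on chromosome 15, 80287238 to 80398292, plus strand. These spans are those of RefSeq over all transcripts of a gene. The windows hold the 250 bases before the start that RefSeq's promoter table takes on GRCm38.p6, written 5′ to 3′. For Cacna2d1 that start, 15934691, lies 427 bases inside the gene's span, so the window lies inside it too, and no GENCODE exon overlaps the window. For Scn2b a GENCODE transcript has its first exon from 45117782, 94 bases before the RefSeq start, and the window is printed for the 156 bases before that exon. Capitals mark GC boxes, GGGCGG or its reverse complement CCGCCC, which can overlap each other and hold CpG.
Cacna2d1, chr5:15934441-15934690: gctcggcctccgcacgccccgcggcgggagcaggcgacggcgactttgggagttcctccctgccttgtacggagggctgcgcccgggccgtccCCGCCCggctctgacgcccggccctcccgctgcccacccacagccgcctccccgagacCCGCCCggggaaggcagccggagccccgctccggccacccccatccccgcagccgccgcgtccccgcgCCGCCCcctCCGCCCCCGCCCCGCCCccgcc
Scn2b, chr9:45117626-45117781: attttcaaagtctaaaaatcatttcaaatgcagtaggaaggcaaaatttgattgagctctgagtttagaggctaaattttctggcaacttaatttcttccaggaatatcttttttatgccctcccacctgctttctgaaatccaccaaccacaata
Cacna1i, chr15:80286988-80287237: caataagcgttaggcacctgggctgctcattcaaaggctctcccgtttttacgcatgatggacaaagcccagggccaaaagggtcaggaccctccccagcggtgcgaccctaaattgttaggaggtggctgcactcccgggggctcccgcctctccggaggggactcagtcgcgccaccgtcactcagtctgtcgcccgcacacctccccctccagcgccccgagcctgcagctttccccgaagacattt
The Cacna2d1 window held 6 GC boxes and 36 CpG at 82.4% G and C. The full Scn2b window held 0 GC boxes and 1 CpG at 38.4%, and the Cacna1i window 0 GC boxes and 16 CpG at 62.4%. A GC box was found in 32.7% of all 32851 RefSeq windows of this length, and the median window held 6 CpG. These are matches of letters only. Windows were found for 24 of the 32 members.

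In the long-tail fraction, Cacna2d1 was again higher and Scn2b again lower in both knockdown libraries. Cacna2d1 was at 12 and 10 TPM in scrambled and 29 and 15 TPM in knockdown long tails, with no overlap, a difference of 0.87 (SE 0.323, limma adjusted p = 0.553, range 0.368 to 0.966). Scn2b was at 63 and 67 against 46 and 41 TPM, also with no overlap, a difference of −0.57 (SE 0.101, limma adjusted p = 0.328). Cacnb2, at 25 and 29 against 22 and 19 TPM, had a difference of −0.38 (SE 0.140, limma adjusted p = 0.550). The pores Cacna1i, at 4 and 5 against 3 and 3 TPM, and Scn1a, at 10 and 9 against 8 and 3 TPM, had differences of −0.45 and −0.81, with limma adjusted p-values of 0.585 and 0.609. No member was called, and none of all genes (a background of 0%). Unadjusted, 1 auxiliary subunit was under 0.05 upward (Cacna2d1; 2.25% of all genes) and 2 downward (Scn2b and Cacnb2; 6.47% of all genes). Libraries were apart downward for 5 of 14 pore and 3 of 12 auxiliary subunits, against 17.1% of all genes, and upward for 1 auxiliary subunit (8.91%). The authors' deposited table for this fraction holds 63 genes that rose (0.46% of tested genes) and 34 that fell (0.249%), and 0 members.

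Pore subunits as a group had a median difference of −0.50 in long tails, with 14 of 14 below 0 (11 of 14 with quantile normalization or median-ratio scaling), against −0.14 for auxiliary subunits (4 above and 7 below) and −0.10 for all genes, of which 61.2% were below 0. For all genes with transcripts over 8 kb the median was −0.41 (lengths are taken up below). The contrast of pore and auxiliary subunits rested on knockdown long-tail library 2. Without it, 8 of 14 pore subunits were above 0 and 6 below, with a median of 0.04. Scn2a1 then had a difference of 0.03 in place of −0.66, and Cacna1a of 0.46 in place of −0.05. Without library 1 of that group the pore median was −0.91. Without library 2, Cacna2d1 had a difference of 1.33 and Scn2b of −0.49 (limma adjusted p = 0.368 for each), so these differences were there in library 1 alone. Without library 1 the difference of Cacna2d1 was 0.42 (limma adjusted p = 0.379). Cacnb4, at 17 and 15 TPM in scrambled long tails, was at 24 TPM in knockdown library 1 and at 8 TPM in library 2, so the libraries of that group lay on either side of the scrambled ones.

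The make-up of the α2δ family differed between the scrambled and the knockdown libraries. Cacna2d1 provided 27.3% and 25.4% of α2δ TPM in scrambled total and 27.3% and 20.8% in scrambled long tails. In knockdown it provided 43.5% and 52.1% in total RNA and 47.5% and 33.3% in long tails, so all 4 knockdown libraries were above all 4 scrambled ones. The share of Cacna2d3 was lower in knockdown, with 56.8% to 64.6% in the scrambled libraries and 38.5% to 53.3% in the knockdown libraries. Its own TPM in total RNA was 38 and 39 against 39 and 37. Cacna2d2 also took a lower share, with 12.5% to 13.6% in the scrambled and 8.33% to 11.1% in the knockdown libraries. Shares within a family move against each other, so these are not separate results. The ratio of Cacna2d1 to Cacna2d3 was 0.474 and 0.436 in scrambled total and 0.949 and 1.35 in knockdown total. Summed α2δ TPM was 66 and 67 in scrambled total and 85 and 96 in knockdown total, and per unit of calcium pore TPM it was 0.335 and 0.356 against 0.447 and 0.471. In long tails the last ratio was 0.344 and 0.400 against 0.427 and 0.600. These shares and ratios are a description, with no test; an exact permutation test within a fraction, 2 libraries against 2, could not give a p under 0.333.

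Within the calcium pores, the shares of Cacna1c and Cacna1b also separated the 4 scrambled from the 4 knockdown libraries. Cacna1c took 14.2% to 15.0% in scrambled libraries and 10.5% to 12% in knockdown libraries. Cacna1b took 11.7% to 12.7% and 13.2% to 14.7%. The separation was read off after the values were seen. Shares within the sodium pores overlapped between scrambled and knockdown for Scn2a1 and Scn8a.

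**Figure D3:**
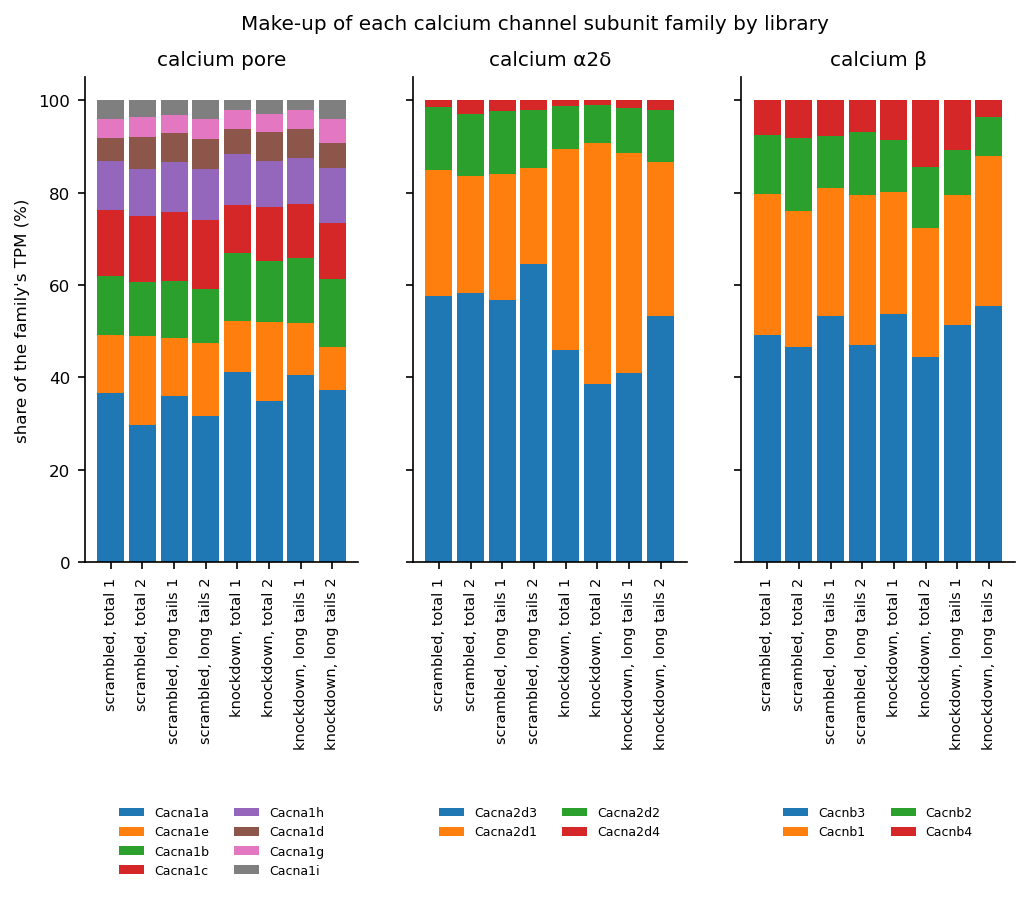
Share of each tested calcium channel subunit in the summed TPM of its family (percent, stacked bars from 0 to 100) in each library. The Cacna2d1 part of the α2δ bars is 20.8% to 27.3% in the 4 scrambled and 33.3% to 52.1% in the 4 knockdown libraries. Cacna1a has the largest part of the calcium pore bars in every library, and the order of the pores after it varies.

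The next comparison sets long tails against total RNA in scrambled neurons, which asks which channel mRNAs took a smaller or larger share once the 50 °C wash had been made. Of the 14 pore subunits, 0 were above the median of all genes. All 14 were below 0, with a median of −0.59, and of the 12 auxiliary subunits 11 were, with a median of −0.34. Over all genes the median was −0.22, with 74.3% below 0. Median-ratio scaling moves the median of all genes from −0.22 to −0.01. Under it, 14 of 14 pore subunits remained below 0 with a median of −0.38, and 10 of 12 auxiliary subunits with a median of −0.16. No member was called by limma, and none of all genes (a background of 0%). Unadjusted, 4 pore and 5 auxiliary subunits were under 0.05 downward, against 12.9% of all genes. In 13 pore and 8 auxiliary subunits both long-tail libraries were below both total libraries, against 39.6% of all genes. Upward, 0 members were under 0.05 unadjusted (0.263% of all genes) and 0 had both long-tail libraries above both total ones (4.69%).

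The pore subunits with the smallest p were T-type channels. Of the 14 pore subunits they had the smallest standard errors, while their differences lay near the pore median of −0.59. With whole-number TPM, the spread at a few TPM, as for Cacna1g, Cacna1i and Cacna2d2, was not resolvable beyond rounding. Cacna1g was at 8 and 8 TPM in total and 5 and 5 TPM in long tails, a difference of −0.58 (SE 0.175). For Cacna1i, at 8 and 7 against 4 and 5 TPM, it was −0.63 (SE 0.195), and for Cacna1h, at 21 and 19 against 14 and 13 TPM, −0.53 (SE 0.209). Among auxiliary subunits, Cacna2d2 was at 9 and 9 against 6 and 6 TPM (−0.51, SE 0.120), Cacna2d3 at 38 and 39 against 25 and 31 TPM (−0.45, SE 0.131) and Scn2b at 83 and 82 against 63 and 67 TPM (−0.34, SE 0.101). Their limma adjusted p-values were 0.377 or 0.378.

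The same comparison in knockdown neurons depended in size on library 2. All 14 pore subunits were below 0 with a median of −0.83 (13 of 14 with quantile normalization), and 10 of 12 auxiliary subunits with a median of −0.49 (8 of 12 and −0.07 with quantile normalization), where all genes had a median of −0.22 and 68.7% were below 0. Unadjusted p-values under 0.05 were met downward by 11 pore and 6 auxiliary subunits, against 25.1% of all genes, and limma called none (0 genes in all, a background of 0%). Libraries were apart downward for 13 pore and 7 auxiliary subunits, against 40% of all genes. Upward, 0 members were under 0.05 unadjusted (0.921% of all genes) and 0 had libraries apart (4.04%). Cacna1h was at 21 and 20 TPM in total and 14 and 9 TPM in long tails (−0.81, SE 0.209), Cacna1g at 8 and 8 against 6 and 4 TPM (−0.61, SE 0.175), and Cacna1b at 28 and 27 against 20 and 11 TPM (−0.84, SE 0.271). Their limma adjusted p-values were 0.140, 0.141 and 0.147. Cacna2d3 was at 39 and 37 against 25 and 24 TPM (−0.61, SE 0.131), Cacnb2 at 33 and 30 against 22 and 19 TPM (−0.60, SE 0.140) and Scn3b at 66 and 58 against 43 and 39 TPM (−0.58, SE 0.147), each with a limma adjusted p of 0.140. Without knockdown long-tail library 2 the pore median was −0.41, with 13 of 14 below 0. Without library 1 it was −1.30, in a fit that holds a lone knockdown long-tail library, assumed to vary like the others.

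Transcript length moved with these values. The longest coding GENCODE transcript of the pore subunits had a median of 8811.5 bases (7338 to 14921) and that of the auxiliary subunits 4403 bases, with 8225 for Cacnb4. A length was found for 95.6% of tested genes. Over all genes the median of long tails minus total in scrambled neurons went from 0.07 for transcripts under 2 kb, through −0.21, −0.38 and −0.49 for the classes from 2 to 4, 4 to 6 and 6 to 8 kb, to −0.55 over 8 kb. In knockdown neurons these medians were 0.16, −0.17, −0.49, −0.72 and −0.90. Spearman's rho with length in scrambled neurons was −0.826 over the 26 members and −0.739 over 13084 genes, a description across genes that share the same libraries.

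The members were also set against the median of their own length class. In scrambled neurons the pore subunits had a median of −0.05 relative to their class (−0.22 for Scn3a to 0.08 for Cacna1d), with 12 of 14 below it, and the auxiliary subunits −0.02 (−0.25 to 0.21), with 6 of 12 below. In knockdown neurons the medians were 0.08 for pore subunits, with 5 of 14 below, and 0.00 for auxiliary subunits, but single members ran from −0.37 to 0.34 and from −0.44 to 0.49. The difference between the knockdown long-tail libraries, library 2 minus library 1, followed length too: its all-gene medians went from 0.38 under 2 kb to −0.83 over 8 kb, and it was −0.96 for the pore and −0.15 for the auxiliary subunits. In total RNA the knockdown difference had a rho of −0.099 with length over the members and −0.034 over all genes. Relative to its length class Cacna2d1 was at 1.34 and Scn2b at −0.52 in that comparison. In long tails the knockdown difference had a rho of −0.556 with length over the members and −0.412 over all genes. Relative to their length class, pore subunits there had a median of −0.10, with 9 of 14 below. For auxiliary subunits it was 0.06, with 5 of 12 below.

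**Figure D4:**
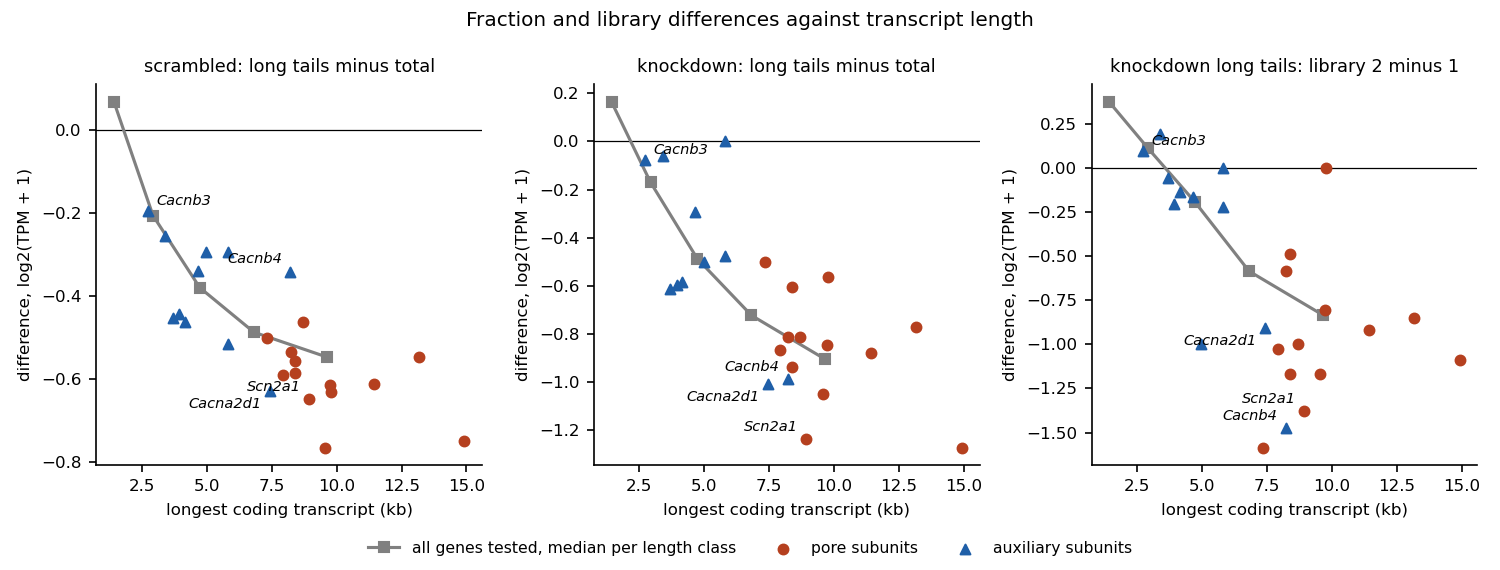
Difference on the log2(TPM + 1) scale against the longest coding transcript (kb) for long tails minus total (scrambled, then knockdown neurons) and for knockdown long-tail library 2 minus library 1; circles are pore and triangles auxiliary subunits (24 of the 26 tested members), and squares the median of all genes in each of 5 length classes. Members follow the all-gene line downward, from Cacnb3 at −0.19 to pore subunits between −0.46 and −0.77 in scrambled neurons.

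Summed over subunits, the ratio of auxiliary to pore mRNA was higher in both scrambled long-tail libraries than in both total ones. Pore TPM summed to 370 and 364 in scrambled total and 239 and 230 in scrambled long tails, while auxiliary TPM summed to 770 and 700 and to 628 and 665. The ratio of auxiliary to pore TPM was 2.08 and 1.92 in total and 2.63 and 2.89 in long tails. Pore transcripts were longer (median 8811.5 bases, against 4403 for auxiliary subunits), and the part of length in this ratio was not tested. In knockdown the ratio was 2.34 and 1.76 in total, overlapping the scrambled libraries, and 2.44 and 5.56 in long tails. The value of 5.56 belongs to library 2, in which pore TPM summed to 120 against 250 in library 1.

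**Figure D5:**
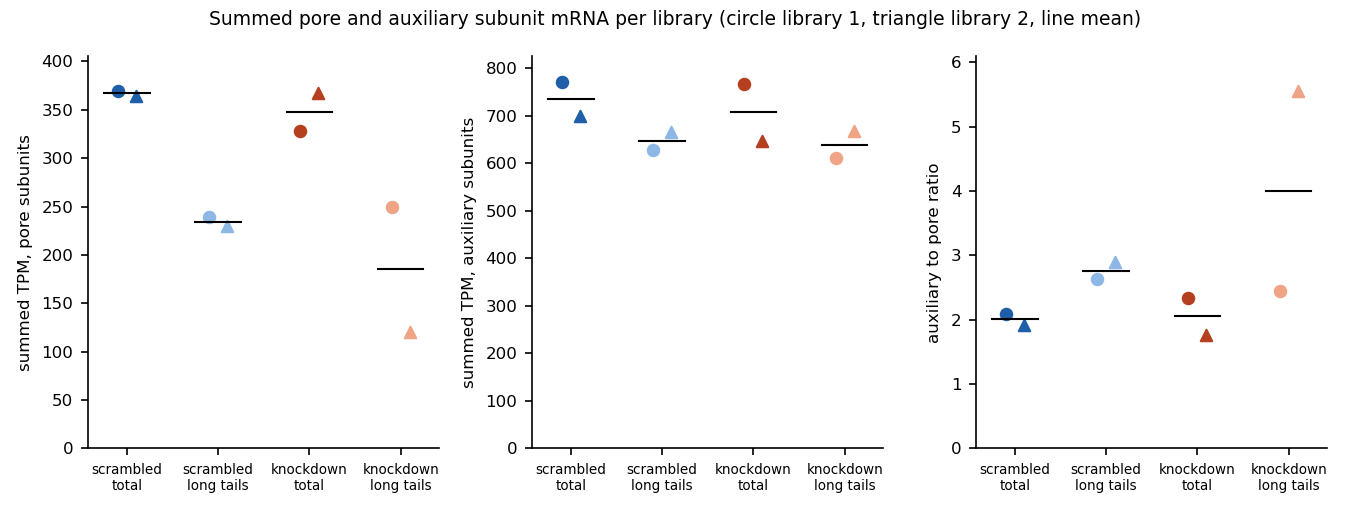
Summed TPM of pore subunits, summed TPM of auxiliary subunits and their ratio in each library (circle library 1, triangle library 2, line the mean of 2; axes start at 0). Pore sums in scrambled neurons are 370 and 364 in total and 239 and 230 in long tails, and knockdown long-tail library 2 has the lowest pore sum (120) and the highest ratio (5.56).

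The interaction subtracts the knockdown difference of total RNA from that of long tails, which asks whether the knockdown acted differently on the fractions. No member was called and every member had a limma adjusted p of 1 (0 of all genes called, a background of 0%; unadjusted, 0 members were under 0.05, against 0.395% of genes upward and 0.482% downward). The pore median was −0.27, with 1 above and 12 below 0, and the auxiliary median −0.04, with 6 above and 6 below, where all genes had −0.02 and 53.5% below 0. For Scn2a1 the interaction was −0.59 (95% interval −2.13 to 0.95), for Cacna1e −0.52 (−2.05 to 1.00) and for Cacna1h −0.28 (−1.01 to 0.46). For Cacnb4 it was −0.65 (−2.29 to 1.00), for Cacna2d4 0.29 (−0.36 to 0.94) and for Cacnb1 0.20 (−0.36 to 0.75). Without knockdown long-tail library 2, 14 of 14 pore subunits were above 0, with a median of 0.19. For Cacna2d1 the interaction was −0.38 (−1.52 to 0.76), an interval that allows a difference between the fractions of either sign, and without that library it was 0.08.

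Proteins that bind these channels were taken as separate lists. Of 19 tested partners of sodium channels, among them ankyrins and intracellular fibroblast growth factors, 10 were above and 8 below 0 in knockdown total RNA (median 0.04), with 0 called. Fgf13, which binds the tail of sodium pores, was at 384 and 285 TPM in scrambled total and 253 and 231 in knockdown total, a difference of −0.45 (SE 0.175, limma adjusted p = 0.771). Ank2, an ankyrin, was at 230 and 218 against 297 and 273 TPM (0.35, limma adjusted p = 0.992).

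Of 33 tested partners of calcium channels, 15 were above and 18 below 0 (median −0.03), with 0 called. At an unadjusted limma p under 0.05 were 3 upward (2.05% of all genes) and 0 downward (4.3%). Cacng2, known as stargazin and named for its likeness to the calcium channel γ subunit but an auxiliary subunit of AMPA receptors, was at 20 and 14 against 46 and 37 TPM (1.25, SE 0.336, limma adjusted p = 0.568). In the authors' deposited tables Cacng2 rose in both fractions, by 1.03 at an adjusted p of 0.00357 in total RNA and by 0.95 at an adjusted p of 0.00981 in long tails. Ppp3ca, a catalytic subunit of calcineurin, was at 251 and 217 against 358 and 330 TPM (0.56, SE 0.145, limma adjusted p = 0.544). The libraries of Cacng2 and Ppp3ca did not overlap in total RNA. Of the 33 partners, 7 had libraries apart upward and 4 downward, against 8.68% and 20.1% of all genes.

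Some members lie in the same region, and some share ground with other genes. Scn2a1, Scn3a, Scn1a, Scn9a and Scn7a lie on chromosome 2 between 65457118 and 66784910, without overlap of their spans. Scn2b and Scn4b lie close together on chromosome 9, where Scn4b runs from 45138624 to 45154155 on the same strand. At 1 to 2 TPM in scrambled total and 1 TPM in both knockdown total libraries, Scn4b was too low to compare with its neighbour. Exons of 6 tested members overlap those of a gene on the opposite strand, by 82 bases for Cacna2d2 with Gm17141 to 1170 bases for Cacnb4 with A430018G15Rik. The sources used here do not say whether counting used strand, so reads of such pairs cannot be told apart.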

How the data were processed

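Poly(A) RNA was sequenced from 8 libraries in 4 groups of 2. The submitters' processing notes name CASAVA, TopHat2, RSEM, DESeq, DESeq2 and mm10, versions not given in the sources used here. A gene table deposited by the authors holds a score, TPM rounded to whole numbers. Result tables of the authors, 1 per fraction, give log2 fold changes, p-values and a mean signal for genes past their threshold. Their sign was turned so that positive means higher in knockdown, after which 201 of 201 entries matched the direction in TPM.

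Log2(TPM + 1) of 13681 genes at a mean of 1 TPM or more was fitted with limma 3.58.1 (R 4.3.3; 4 group means, eBayes with trend) and tested two-sided in 5 contrasts. A call needed a p under 0.05 after Benjamini-Hochberg adjustment over all genes. The script was tested on simulated data. Full values are given per contrast for the 3 pore and 3 auxiliary members with the smallest p, for members in the authors' tables, and for up to 3 genes per partner list; some of these are not reported here, and figures show 24 of the 26 tested members. Members and lists were chosen with earlier results of these data known. Lengths come from GENCODE vM21 (GRCm38) and upstream windows from RefSeq (GRCm38.p6). Alternatives were pseudocounts, filters, scalings, model options, the replicate block and leaving out each library.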

Additional observations from a re-analysis of the deposited data

How the results depend on the processing

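With any of the other pseudocounts, filters, scalings and model options, 0 members were called in each of the 5 contrasts. Leaving out single libraries gave 0 to 14 members for long tails minus total in knockdown (14 without knockdown long-tail library 1) and 0 in the other contrasts. The fit behind these 14 holds knockdown long-tail library 2 as the only library of its group, the library that stood apart. Many genes outside the members were called in that fit too, so its count is not particular to these channels. Quantile normalization moved the auxiliary median of knockdown long tails to −0.0182. It moved that of scrambled long tails minus total to −0.21, which median-ratio scaling moved to −0.16. Over left-out libraries, the auxiliary median of knockdown total ran from −0.2797 to −0.0365 and the pore median of knockdown long tails from −0.9055 to 0.0394. Without knockdown long-tail library 2 the interaction reversed for Scn2a1 (0.10; range over left-out libraries −1.28 to 0.10), Cacna1e (0.023; −1.06 to 0.023), Cacna1h (0.0146; −0.57 to 0.0146), Cacnb4 (0.0908; −1.38 to 0.0908), and for Cacna2d1 (0.08). The cause was not tested. In total RNA, Cacna2d1 ran from 1.04 to 1.46 and Scn2b from −0.63 to −0.53 over all alternatives. Over all genes, where 0 were called as reported in each contrast, fits without a filter called 59 in knockdown total, 61 in knockdown long tails, 61 and 79 in long tails minus total (scrambled and knockdown) and 83 in the interaction; fits to the compared libraries only called 50, 83, 87 and 97 in the first 4, and the other alternatives with all 8 libraries called 0 to 13. Same-numbered libraries deviated together in 5 of 6 pairs of groups (correlations of deviations 0.759, 0.674, 0.577, 0.485 and 0.245). They did not in knockdown total and long tails (−0.116), a pair that holds knockdown long-tail library 2, which stood apart. The sources used here do not say whether the numbers pair the samples, and the main fits have no pairing. Whether the numbers mark a shared batch was not tested. With the replicate block 0 members were called in the 5 contrasts. With whole-number TPM and unknown depth, differences of members at a few TPM were not resolvable beyond rounding.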

Other observations

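Other voltage-gated and leak channels were set beside the members as background. Of 6 tested genes of the sodium leak channel and of endolysosomal and proton channels, 1 was above and 5 below 0 in knockdown total RNA (median −0.20), with 0 called. Tpcn1, an endolysosomal cation channel, was at 55 and 51 TPM in scrambled total and 39 and 37 in knockdown total (−0.47, SE 0.129, limma adjusted p = 0.592). Unc80, a subunit of the sodium leak channel, was at 13 and 15 against 18 and 25 TPM (0.57, limma adjusted p = 0.924), and Fam155a, another of its subunits, at 52 and 44 against 44 and 37 TPM (−0.24, limma adjusted p = 0.951). Libraries of Tpcn1 and Unc80 did not overlap. Of the 6 genes, 1 was apart upward and 1 downward, against 8.68% and 20.1% of all genes.

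Of 97 potassium channel subunits, 68 were tested, with 24 above and 33 below 0 in knockdown total RNA and a median of 0. Kcnip2, a calcium-binding subunit of A-type potassium channels, was at 91 and 62 TPM in scrambled total and 34 and 30 in knockdown total (−1.21, SE 0.242, limma adjusted p = 0.403). In the authors' deposited table Kcnip2 fell by 0.89 on the log2 scale (adjusted p = 0.00964). In scrambled long tails minus total the 68 genes had a median of −0.34, beside −0.59 for the sodium and calcium pores, −0.34 for their auxiliary subunits and −0.22 for all genes.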
